A study of Mus musculus with 9 samples.

Results

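The circadian clock repressors and output regulators described here are 10 genes, Per1, Per2, Per3, Cry1, Cry2, Bhlhe40, Bhlhe41, Nfil3, Nr1d1 and Nr1d2, out of 19938 genes measured. They were chosen by name as the repressing arm of the clock, with earlier results of these data known. Each had exactly 1 probe with a single gene symbol on the array, so none of the 10 was left out. The cells were of the MA-10 line, derived from a mouse Leydig cell tumour, which produces steroids in response to cAMP. They were profiled on 9 Affymetrix whole-transcript arrays. All cells spent 1.5 h in serum-free medium. One group of 3 arrays received 10 µM forskolin with 1 mM AICAR, a second group of 3 received 10 µM forskolin, and the control group of 3 received the DMSO vehicle by its treatment labels, although its sample titles call it untreated. If so, differences from control would include the vehicle. Forskolin stimulates adenylyl cyclase, the enzyme that makes cAMP. AICAR is converted inside cells to ZMP, which resembles AMP and switches on the kinase AMPK. Cells given AICAR alone were not analysed here. The line is 1 established tumour clone, and nothing in the labels says that the arrays of a group came from separate cultures, so the p-values cover the spread among these arrays, which may be technical.

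The mammalian clock is a feedback loop in which the activators CLOCK and BMAL1 (the product of Arntl) bind E-box sequences and drive Per and Cry genes. The period and cryptochrome proteins then return to the nucleus and inhibit that pair of activators. BHLHE40 and BHLHE41 (also called DEC1 and DEC2) bind the same E-boxes as repressors. NR1D1 and NR1D2 (REV-ERB alpha and beta) are haem-binding nuclear receptors that repress Arntl and Nfil3, and NFIL3 represses genes through D-box sequences that DBP, TEF and HLF activate. Period genes are also known as rapid targets of cAMP and CREB, which is one way that hormones reset clocks in peripheral tissues. AMPK is known in mouse cells to phosphorylate CRY1 and so to speed its loss, an effect on protein that a transcript array does not measure. In mouse Leydig cells the clock is known to bear on testosterone synthesis.

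Short stretches of DNA before the transcription starts are shown for those members for which the clock's own motifs or cAMP motifs were present, whether or not their transcripts differed between groups. RefSeq start sites (mouse build GRCm38.p6) were matched for 8 of the 10 members, with 9 starts in all, and not for Per2 and Bhlhe40. The 250 bases before each start were searched on both strands. The motifs were the full cAMP response element TGACGTCA, its shorter core TGACG (which the full element contains), the E-box CACGTG, the D-box TTANGTAA and the ROR and REV-ERB core AGGTCA. Capitals mark a match on either strand, all stretches lie upstream of the named start, and each is written 5′ to 3′ along the gene's strand.
Per1 start 1, 250 to 221 bases before, chr11:69098699-69098728, plus strand: ttatTGACGgtgtgagacatcctgatcgca
Per1 start 1, 180 to 121 bases before, chr11:69098769-69098828, plus strand: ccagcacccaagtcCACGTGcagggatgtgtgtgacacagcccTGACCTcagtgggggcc
Per1 start 2, 145 to 116 bases before, chr11:69100007-69100036, plus strand: tgagctcagcggcTGACGtcggtttccctg
Cry1, 80 to 1 bases before, chr10:85185055-85185134, minus strand: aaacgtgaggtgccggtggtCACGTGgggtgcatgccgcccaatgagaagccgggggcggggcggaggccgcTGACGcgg
Cry2, 225 to 186 bases before, chr2:92434255-92434294, minus strand: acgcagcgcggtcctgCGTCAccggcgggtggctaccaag
Nfil3, 80 to 1 bases before, chr13:52981040-52981119, minus strand: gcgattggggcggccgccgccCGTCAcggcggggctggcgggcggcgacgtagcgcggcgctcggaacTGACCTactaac
Nr1d2, 95 to 56 bases before, chr14:18239162-18239201, minus strand: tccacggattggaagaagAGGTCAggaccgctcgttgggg
Bhlhe41, 175 to 136 bases before, chr6:145865556-145865595, minus strand: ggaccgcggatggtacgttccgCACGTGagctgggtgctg
Per3, 220 to 141 bases before, chr4:151044806-151044885, minus strand: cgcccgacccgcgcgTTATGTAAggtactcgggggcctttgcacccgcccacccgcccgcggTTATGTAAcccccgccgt

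The short cAMP core lay before 5 of the 9 starts, namely both starts of Per1 and those of Cry1, Cry2 and Nfil3, against 17.8% of 32851 mouse starts searched in the same way. The full element lay before 0 of the 9 starts and before 1.55% of all starts. E-boxes lay before 3 of the 9 starts (Per1 start 1, Cry1 and Bhlhe41; 6.02% of all starts). The D-box lay before Per3 alone among the members, at 2 places, against 2.06% of all starts. The ROR and REV-ERB core lay before 3 starts (Per1 start 1, Nfil3 and Nr1d2; 14% of all starts). The searched start of Nr1d1, which differed with forskolin, held none of these motifs. Cry1, which has the short core, was not called in the main fit of any comparison below. An alternative fit with array weights called it in both comparisons that include AICAR, as given at the end. Per1, which also has the short core, was called higher with forskolin. Matches describe letters in a window, and they say nothing of binding in these cells.

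All values below are deposited log2 values, and a difference of 1 on this scale is a 2-fold change. Calls of change rest on an adjusted p under 0.05 in limma's moderated test across all 19938 genes, with Benjamini-Hochberg adjustment. Forskolin changed 0.692% of all genes (138 of 19938) and AICAR added to forskolin changed 5.1% (1017). Forskolin with AICAR against control changed 8.72% (1739). With array weights these counts were 436, 5729 and 6619. Of the genes changed with AICAR against forskolin, 19.2% were higher, and 33.7% after quantile normalization. In the first principal component of deviations from the group means, AICAR replicate 1 lay furthest from 0 (−0.596), with AICAR replicate 3 at the other end (0.561). Without AICAR replicate 1, AICAR against forskolin called 3324 genes, 1677 higher and 1647 lower, and AICAR against control called 4741, 2675 higher and 2066 lower, where the fit of all arrays called 606 higher and 1133 lower. With array weights that comparison called 3578 higher and 3041 lower. Over all 9 arrays left out in turn, the counts ran from 487 to 3324 and from 660 to 4741 in these comparisons, and from 76 to 144 for forskolin against control. Of the cAMP response genes, Sik1 was 6.04-fold, Nr4a1 6.22-fold and Star 3.70-fold higher with forskolin than in control. With AICAR against forskolin Nr4a1 was called lower (−0.46, adjusted p = 0.0017 in limma), and Sik1 was not called (−0.0205, adjusted p = 0.86). Of 10 Leydig cell markers 8 were measured, and all 8 lay above the median brightness of all genes, as did 3 of 6 Sertoli, 1 of 5 macrophage, 1 of 4 endothelial (Cdh5), 0 of 4 germ cell and 0 of 4 peritubular markers. Marker signals were summed on the linear scale, where the brightest genes weigh most, and the sums are given as log2. The sum of the Sertoli list was 10.81 to 10.82 with forskolin and AICAR, 10.91 to 10.98 with forskolin and 11.05 to 11.07 in control. Of its 6 genes Sox9 alone was called with AICAR against forskolin (−0.46), while Wt1 (0.24), Amh (0.13) and Gata1 (0.11) differed upward without passing. The macrophage sum was 8.33 to 8.53 with forskolin and AICAR, 8.62 to 8.67 with forskolin and 8.53 to 8.56 in control, and Cd68 alone of its 5 genes was called with AICAR against forskolin (−0.39). The Leydig sum was 13.92 to 14.01 with forskolin and AICAR, 14.22 to 14.26 with forskolin and 13.97 to 14.00 in control, with 5 of 8 genes called with AICAR against forskolin, Star among them (−2.05). The part of these marker lists in the results below was not tested.

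Forskolin raised 3 members of the repressing arm, Bhlhe40, Per1 and Per2, and lowered 1, Nr1d1. The other 6 did not pass the test. Against these 4 of 10 members, 0.692% of all genes were called, 0.497% higher and 0.196% lower. Because the members were chosen with earlier results known, such shares, here and below, describe the list and are not a test of it. The members' median log2 difference was 0.16, and the median over all genes was 0.0034. The median absolute difference was 0.28 among the members and 0.0425 over all genes. Forskolin arrays did not overlap control arrays in 7 members, 5 higher (Per1, Per2, Cry2, Bhlhe40 and Nfil3) and 2 lower (Per3 and Nr1d1), where 14% of all genes showed such a separation.

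Of the period genes Per1 and Per2 rose with forskolin and Per3 did not pass the test. Per1, the period gene best known as an immediate target of cAMP, had log2 values of 9.23, 9.42 and 9.39 in the 3 forskolin arrays, against 8.36, 8.58 and 8.57 in the control arrays. Every forskolin array was thus above every control array, and the gap between the groups was wider than the spread inside either. Per1 rose 1.79-fold (log2 difference 0.84, SE 0.08, adjusted p = 0.0008). Per2, the period gene whose loss disrupts rhythm in mice, had values of 8.42, 8.35 and 8.58 with forskolin and 7.996, 8.12 and 8.01 in control, a rise of 1.33-fold (log2 difference 0.41, SE 0.06, adjusted p = 0.022). The Per2 groups were also fully separate, with a smaller gap. The Per2 call was lost without any 1 of control replicates 1, 2 and 3 or forskolin replicates 1 and 3 (adjusted p = 0.05 to 0.12). Per3, which is dispensable for rhythm in mice, was at 8.80, 8.74 and 8.84 with forskolin and 8.88, 8.84 and 8.84 in control (log2 difference −0.064, 95% interval −0.15 to 0.02, adjusted p = 0.82). Those groups did not overlap, yet they lay within a range of 0.14 over all 9 arrays.

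**Figure D1:**
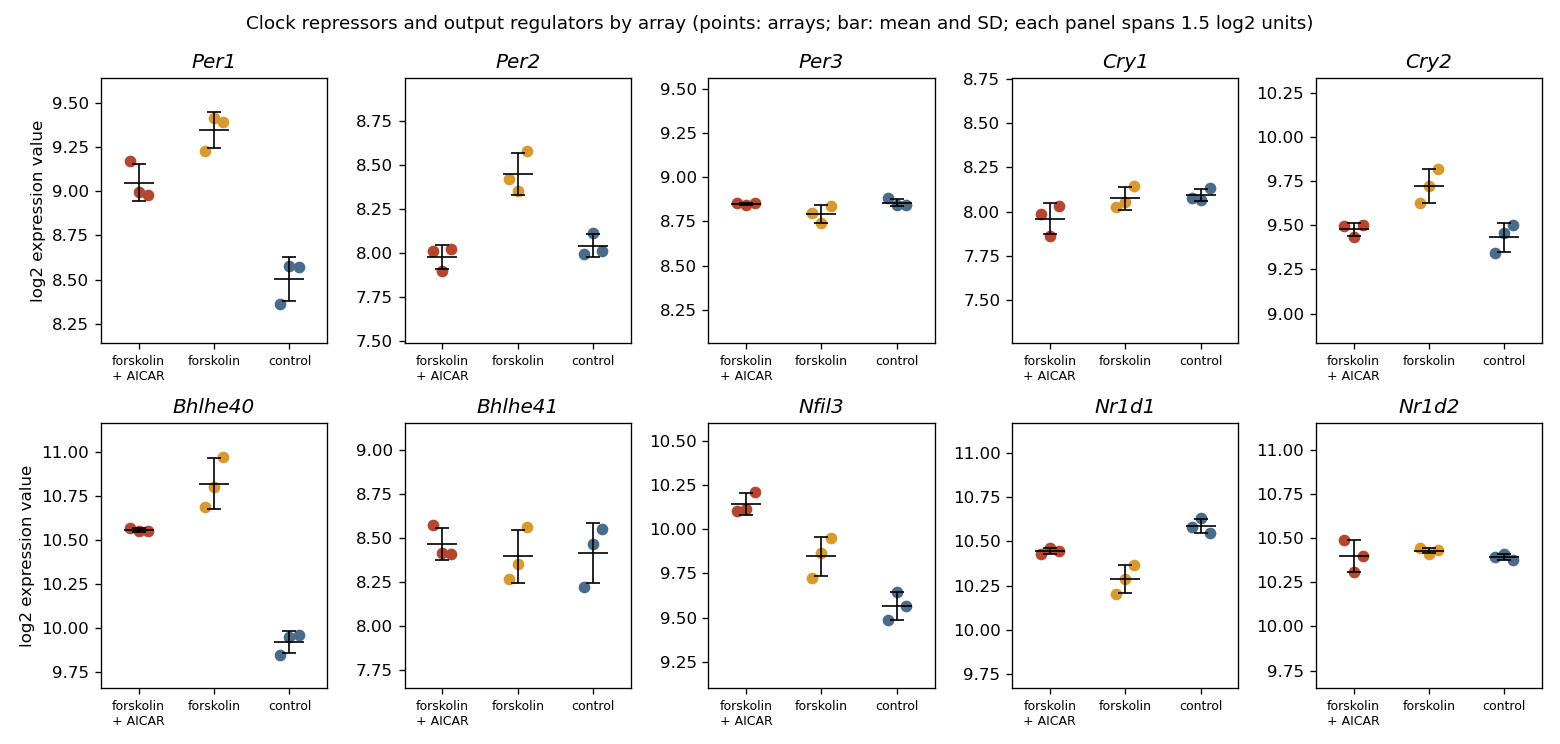
Log2 expression of the 10 members in each of the 9 arrays (points), with the mean and SD of each group of 3 (bars). Each panel spans the same 1.5 log2 units. Bhlhe40 and Per1 show the widest ranges over the arrays, and Per3 and Nr1d2 stay nearly flat.

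Of the DEC pair Bhlhe40 rose and Bhlhe41 did not pass the test. Bhlhe40, an E-box repressor that many stimuli induce quickly, was at 10.69, 10.80 and 10.97 with forskolin against 9.85, 9.95 and 9.96 in control. Its lowest forskolin array lay well above its highest control array, and it had the largest forskolin response of the 10 members (1.87-fold, log2 difference 0.90, SE 0.07, adjusted p = 0.00023). Bhlhe41, its close relative, was at 8.27, 8.35 and 8.56 with forskolin against 8.22, 8.47 and 8.55 in control. The Bhlhe41 groups overlapped, and its log2 difference was −0.018 with a 95% interval of −0.24 to 0.20 (adjusted p = 0.99). That interval is the widest among the members, and replicates of Bhlhe41 had SDs of 0.15 with forskolin and 0.17 in control.

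Cryptochromes and Nfil3 did not pass the test with forskolin. Cry2 was at 9.62, 9.72 and 9.82 with forskolin against 9.34, 9.46 and 9.50 in control (log2 difference 0.29, SE 0.06, adjusted p = 0.085). Nfil3, the D-box repressor, was at 9.73, 9.86 and 9.95 with forskolin against 9.49, 9.65 and 9.56 in control (log2 difference 0.28, SE 0.06, adjusted p = 0.13). In both genes the forskolin arrays were all above the control arrays, although neither was called. Cry1, the cryptochrome that lengthens the period of the clock in mice, was at 8.02, 8.05 and 8.15 with forskolin against 8.08, 8.07 and 8.13 in control, and its groups overlapped (log2 difference −0.019, 95% interval −0.14 to 0.10, adjusted p = 0.98).

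Of the REV-ERB receptors, Nr1d1 fell 1.23-fold with forskolin (log2 difference −0.30, SE 0.05, adjusted p = 0.019). It was at 10.20, 10.29 and 10.37 with forskolin against 10.58, 10.63 and 10.55 in control, so that all forskolin arrays lay below all control arrays. It was the only member of the 10 called lower with forskolin. Its call was lost without any 1 of control replicates 1, 2 and 3 or forskolin replicates 1 and 2 (adjusted p = 0.061 to 0.11). Nr1d2 was at 10.44, 10.41 and 10.43 with forskolin against 10.39, 10.41 and 10.38 in control (log2 difference 0.035, 95% interval −0.07 to 0.14, adjusted p = 0.95).

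**Figure D2:**
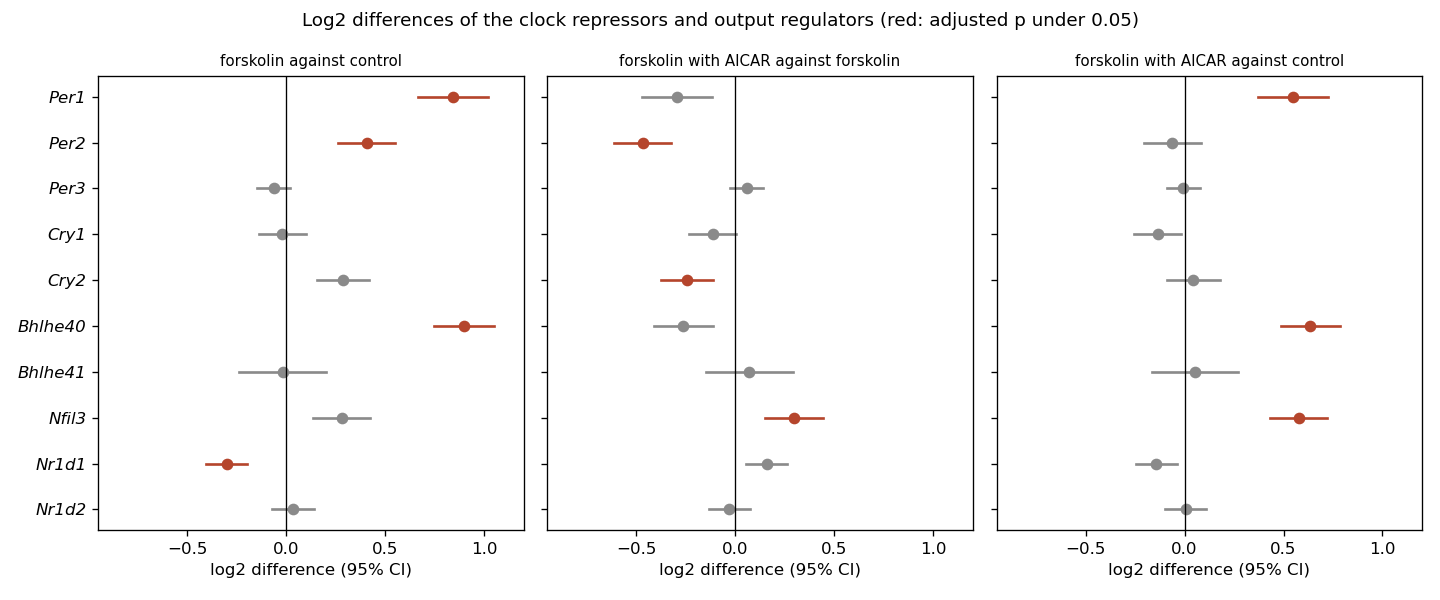
Log2 differences of the 10 members with 95% confidence intervals (limma) in the 3 comparisons, red where the adjusted p is under 0.05. With forskolin Bhlhe40, Per1 and Per2 lie right of 0 and Nr1d1 left of it, and with AICAR added Per2 and Cry2 lie left and Nfil3 right.

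AICAR added to forskolin lowered Per2 and Cry2 and raised Nfil3, and the other 7 members did not pass the test. Over all genes 5.1% were called in this comparison, 4.12% lower and 0.978% higher. The members' median log2 difference was −0.073 and that of all genes 0.023, with median absolute differences of 0.20 and 0.077. Arrays with AICAR did not overlap forskolin arrays in 7 members, 4 lower (Per1, Per2, Cry2 and Bhlhe40) and 3 higher (Per3, Nfil3 and Nr1d1), against 23.6% of all genes. This comparison shares its forskolin arrays with the one against control, so the values of both are given side by side below.

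Per2 was at 8.01, 7.90 and 8.02 with forskolin and AICAR, against 8.42, 8.35 and 8.58 with forskolin. That is a fall of 1.38-fold (log2 difference −0.47, SE 0.06, adjusted p = 0.0031), and the call held without any 1 of the 9 arrays (adjusted p = 0.0063 to 0.018). The AICAR arrays of Per2 overlapped the control arrays (log2 difference from control −0.063, 95% interval −0.21 to 0.08, adjusted p = 0.52). Cry2 was at 9.49, 9.43 and 9.50 with forskolin and AICAR, against 9.62, 9.72 and 9.82 with forskolin (log2 difference −0.24, SE 0.06, adjusted p = 0.046). Against control, Cry2 with AICAR differed by 0.045 (95% interval −0.09 to 0.18, adjusted p = 0.62). The fall of Cry2 lost its call without any 1 of control replicates 2 and 3, forskolin replicates 2 and 3 or AICAR replicates 2 and 3 (adjusted p = 0.057 to 0.15).

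Per1 and Bhlhe40 did not pass the test against forskolin and were higher than in control. Per1 was at 9.17, 8.99 and 8.98 with forskolin and AICAR, against 9.23, 9.42 and 9.39 with forskolin (log2 difference −0.30, SE 0.08, adjusted p = 0.064). Against the control arrays at 8.36, 8.58 and 8.57 it was 1.46-fold higher (log2 difference 0.55, SE 0.08, adjusted p = 0.0039). Bhlhe40 was at 10.57, 10.55 and 10.55 with forskolin and AICAR, against 10.69, 10.80 and 10.97 with forskolin (log2 difference −0.26, SE 0.07, adjusted p = 0.056). It stayed 1.55-fold above control (log2 difference 0.64, SE 0.07, adjusted p = 0.00077). In both genes the AICAR arrays lay between the forskolin and control arrays with no overlap on either side. The AICAR difference passed without AICAR replicate 1 for Per1 (−0.36, adjusted p = 0.022) and for Bhlhe40 (−0.27, adjusted p = 0.048), and for Bhlhe40 also without forskolin replicate 1 (−0.33, adjusted p = 0.027).

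Nfil3 rose when AICAR was added. Its values with forskolin and AICAR were 10.10, 10.11 and 10.21, against 9.73, 9.86 and 9.95 with forskolin, a rise of 1.23-fold (log2 difference 0.30, SE 0.06, adjusted p = 0.031). Against control, at 9.49, 9.65 and 9.56, it was 1.49-fold higher (log2 difference 0.58, SE 0.06, adjusted p = 0.0011). The 3 groups of Nfil3 did not overlap at any step, with AICAR arrays highest and control arrays lowest. The AICAR call was lost without any 1 of control replicate 3, forskolin replicates 1 and 2 or AICAR replicates 2 and 3 (adjusted p = 0.053 to 0.097), whereas the difference from control held without any 1 array (adjusted p = 0.0014 to 0.0071).

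Nr1d1 was at 10.43, 10.46 and 10.44 with forskolin and AICAR, between the forskolin arrays (10.20 to 10.37) and the control arrays (10.55 to 10.63). Neither step passed the test (log2 difference 0.16, adjusted p = 0.089, from forskolin, and −0.14, adjusted p = 0.083, from control). Nr1d2 was at 10.49, 10.31 and 10.40 with AICAR and differed from forskolin by −0.030 (95% interval −0.14 to 0.08). Cry1 was at 7.99, 7.86 and 8.03 with AICAR. It differed from forskolin by −0.12 (adjusted p = 0.22) and from control by −0.13 (adjusted p = 0.13), and its AICAR arrays lay below all control arrays. Bhlhe41 (8.57, 8.41 and 8.41) and Per3 (8.85, 8.84 and 8.85) did not pass in either comparison that included AICAR.

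With forskolin and AICAR together against control, 3 of 10 members were higher (Bhlhe40, Nfil3 and Per1) and none lower, against 3.04% of all genes higher and 5.68% lower. Arrays of both groups were fully separate in 5 members, the 3 called ones and, below control, Cry1 and Nr1d1, against 29.5% of all genes. At an unadjusted p under 0.05, 5 members passed in limma, the others being Cry1 and Nr1d1, against 31.1% of all genes. The members' median difference was 0.025 and that of all genes 0.025. The median absolute differences were also near each other, 0.099 among the members and 0.088 over all genes. The 3 calls held without any 1 of the 9 arrays.

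Responses of related members were also set against each other inside each array, by subtracting the log2 value of 1 relative from that of the other. Forskolin shifted Bhlhe40 by 0.92 more than Bhlhe41, Per1 by 0.91 more than Per3 and Per1 by 0.44 more than Per2. It shifted Cry1 by −0.31 relative to Cry2 and Nr1d1 by −0.34 relative to Nr1d2. In these 5 pairs the forskolin and control arrays did not overlap, and an exact two-sided permutation test over arrays gave p = 0.1 for each, the smallest that 3 against 3 arrays allow (adjusted p = 0.11 over 10 tests). Each pair holds a gene whose own forskolin and control arrays did not overlap, so the separation partly repeats the results above. How often other gene pairs separate in this way was not computed. With AICAR added, the difference shifted by −0.36 between Per1 and Per3, by −0.33 between Bhlhe40 and Bhlhe41, by 0.19 between Nr1d1 and Nr1d2 and by 0.13 between Cry1 and Cry2 (exact permutation p = 0.1, adjusted 0.11, for each). Between Per1 and Per2 it shifted by 0.17 and the groups overlapped (exact permutation p = 0.2, adjusted 0.2). This test could not pass a threshold of 0.05 with 3 arrays a group, so it does not decide whether relatives responded differently.

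Replicates within a group were also ranked. In the forskolin group replicate 3 was the highest array for 8 of 10 members (42.5% of all genes) and replicate 1 the lowest for 7 (40.9%). Replicate 1 was the lowest array in both the forskolin and the control group for 5 members, Per1, Cry2, Bhlhe40, Bhlhe41 and Nfil3, against 17.7% of all genes. The members' median SD was 0.064 with forskolin and AICAR, 0.1 with forskolin and 0.064 in control. Some deposited values repeat to the last digit between arrays, which held for 60.8% of all genes and for Per3, Bhlhe40 and Nr1d2 among the members. The small SD of Bhlhe40 in the AICAR group (0.010) stands beside such a repeat, 10.5508 in AICAR replicates 2 and 3. The AICAR values of Per3 (SD 0.005) all differed from each other. Its repeated value, 8.8447, lay in AICAR replicate 2 and control replicates 2 and 3.

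The rest of the clock was taken from a second list. Of 27 listed activators, kinases, ligases, partners and output genes, 24 were analysed here. Forskolin raised 2, Usp2 and Csnk1e, and lowered none in limma (0.692% of all genes called), while 5 had an unadjusted p under 0.05 (7.27% of all genes). AICAR added to forskolin lowered Usp2 and Csnk1e and raised none (5.1% of all genes called), a count of 2 of 24 that is near that background, while 5 had an unadjusted p under 0.05 (24.1% of all genes). Their median log2 differences were −0.043 with forskolin and 0.0057 with AICAR added. Usp2, a deubiquitinase whose transcript is a clock output in mouse tissues, was at 9.36, 9.44 and 9.60 with forskolin and AICAR, against 10.13, 10.04 and 10.08 with forskolin and 9.36, 9.44 and 9.40 in control. It rose 1.6-fold with forskolin (log2 difference 0.68, SE 0.06, adjusted p = 0.00065) and fell 1.53-fold with AICAR added (−0.61, SE 0.06, adjusted p = 0.00064). Its AICAR arrays overlapped the control arrays, as those of Per2 and Cry2 did. Csnk1e, which encodes a casein kinase that phosphorylates period proteins, rose by 0.30 with forskolin (SE 0.035, adjusted p = 0.0042). It fell by 0.16 with AICAR added (adjusted p = 0.032), and that call was lost without any 1 of 7 arrays, leaving forskolin replicate 1 and AICAR replicate 1 as the exceptions (adjusted p = 0.052 to 0.12).

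The activators did not pass the test with forskolin. Arntl differed by −0.10 (adjusted p = 0.68) and Clock by −0.043 (adjusted p = 0.92). The D-box activator Dbp differed by −0.11 (adjusted p = 0.76) and the period kinase Csnk1d by −0.0245 (adjusted p = 0.96). With forskolin and AICAR against control, 4 of the 24 were called (8.72% of all genes). Csnk1e (0.14) and Rora (0.17), a receptor that competes with REV-ERB proteins, were higher. In the same comparison Ciart (−0.26), a repressor of CLOCK and BMAL1, and the cell cycle kinase gene Wee1 (−0.19) were lower (adjusted p = 0.043, 0.043, 0.0091 and 0.023). Of these 4 calls, that of Ciart held without any 1 array (adjusted p = 0.0049 to 0.043). Rora and Csnk1e lost theirs without any 1 of 7 and 8 arrays (adjusted p up to 0.14 for each) and Wee1 without any 1 of 5 (up to 0.083). Controls 1, 2 and 3 and AICAR replicate 3 were among those arrays for all of these 3, and AICAR replicate 2 for Csnk1e and Wee1. The forskolin replicates 1, 2 and 3 completed the arrays for Rora and Csnk1e.

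**Figure D3:**
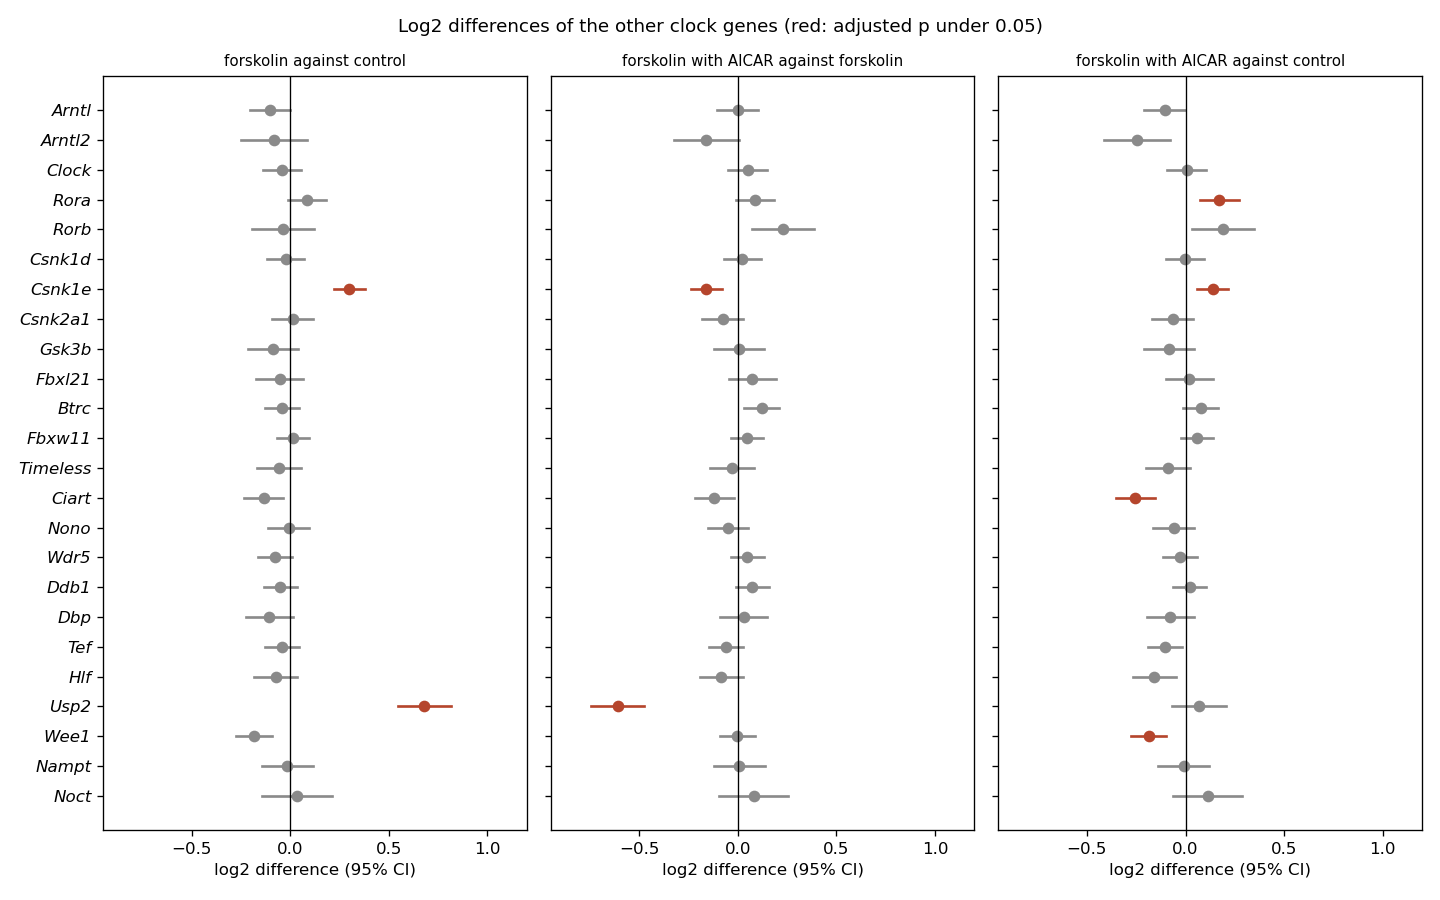
Log2 differences of the 24 other clock genes analysed with 95% confidence intervals (limma) in the 3 comparisons, red where the adjusted p is under 0.05. Usp2 lies furthest from 0 with forskolin (0.68) and with AICAR added (−0.61), and most other intervals cross 0.

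The genes whose values over the 9 arrays ran closest to those of 4 members were found by Pearson's r among 1240 named genes whose group means spanned at least 0.3. These r values describe 9 arrays in 3 groups and carry no test. Closest to Per1 were Jmjd1c (r = 0.98), Bhlhe40 (0.98) and Dusp16 (0.98), so that Per1 and Bhlhe40 were near neighbours of each other. Closest to Bhlhe40 were Dusp16 (0.99), a MAP kinase phosphatase gene, Rasgef1b (0.98) and Per1 (0.98). Dusp16 differed by 0.90 with forskolin and by −0.25 with AICAR added, and Bhlhe40 by 0.90 and −0.26. Closest to Per2 were the growth-arrest gene Btg1 (0.98), the AP-1 gene Jun (0.97) and the growth factor gene Pdgfb (0.97). Jun differed by 0.61 with forskolin and by −0.81 with AICAR added, and with forskolin and AICAR it differed from control by −0.20 (−0.063 for Per2). Closest to Nfil3 were Egr1 (0.97), an immediate early transcription factor, Smad6 (0.96) and the hexokinase gene Hk2 (0.96). Egr1 differed by 0.50 with forskolin and by a further 0.40 with AICAR added.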

How the data were processed

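Per the labels, total RNA of 9 samples (3 groups of 3) was labelled for Affymetrix whole-transcript arrays. The deposited values are log2 summaries per probe set. The submitters' processing notes name RMA and Partek, without versions or settings; a genome build is not given in the sources used here. RMA usually makes the arrays share 1 distribution, so differences are relative to the other genes on the arrays, and median polish can repeat values between arrays. Array medians were 7.14 to 7.19. The number of arrays limits the precision.

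Of 35557 probes, 21789 carried 1 symbol, 1621 several and 12147 none. The brightest probe of each symbol was kept, which gave 19938 genes. No filter was set on dim probes. One model with 3 group means was fitted in limma 3.58.1 (R 4.3.3), two-sided. A check on simulated data drew noise independently for each gene and array and covered forskolin against control alone. In the real data the first component held 46.04% of the sum of squares of deviations from group means. The check does not cover such shared deviations. Relatives were compared with exact permutation tests in scipy 1.17.1. All members, every called gene of a list of 27 other clock genes, Arntl, Clock, Dbp, Csnk1d, the 3 genes closest to Per1, Per2, Bhlhe40 and Nfil3, and Star, Nr4a1 and Sik1 could be named. Members and lists were chosen with earlier results of these data known. Alternatives were a replicate block, filters on dim genes, other normalizations, priors, weights, samples, probes and thresholds, and each array left out.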

Additional observations from a re-analysis of the deposited data

How the results depend on the processing

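Replicate numbers are shared between groups, and deviations of same-numbered arrays from their group means correlated at −0.406 to 0.329. Between control and forskolin these correlations were 0.244, 0.013 and 0.329, against −0.304 to 0.149 for different numbers. Those of same-numbered pairs with an AICAR array ran from −0.406 to 0.083, against −0.211 to 0.491 for different numbers. Whether the numbers pair the arrays was not tested, and the main fit did not pair them. With the replicate number as a block in the fit, forskolin called 2 members (Per1 and Bhlhe40) in place of 4, Cry2 lost its call with AICAR against forskolin (adjusted p = 0.052 in limma), and the other clock genes called fell to 1 of 24 both with AICAR against forskolin and with AICAR against control. Called members after forskolin were also 2 when only the compared groups entered the fit and at an adjusted p under 0.01. They were 5 after quantile normalization, with a trended and robust prior or at an adjusted p under 0.1, and 6 with array weights. In limma Cry2 passed after quantile normalization (adjusted p = 0.015), with the trended and robust prior (0.035) and with array weights (0.013). Nfil3 passed with array weights (adjusted p = 0.035). Leaving out 1 array gave 2 to 4. Called members with AICAR against forskolin were 3, and 5 when genes dimmer than a mean log2 value of 6 were dropped or after quantile normalization, 6 with a trended and robust prior or at an adjusted p under 0.1, 7 with array weights, and 1 with only the compared groups or at an adjusted p under 0.01. Bhlhe40 entered with that filter (adjusted p = 0.043 in limma), after quantile normalization (0.044), with that prior (0.026) and with array weights (0.0085). Per1 entered with the filter (0.05 after rounding), the prior (0.041) and array weights (0.005). Nr1d1 entered after quantile normalization (0.039), with the prior (0.044) and with array weights (0.007), and Cry1 with array weights alone (0.013). Leaving out 1 array gave 1 to 5. For AICAR against control the 3 called members became 5 with array weights, which added Cry1 (−0.20, adjusted p = 0.0085 in limma) and Nr1d1 (−0.14, 0.022). Nr1d1 also passed after median centring (adjusted p = 0.048) and at an adjusted p under 0.1 (0.083 in the main fit). Other clock genes called with AICAR against forskolin were 2, and 1 with only the compared groups or at an adjusted p under 0.01, 7 with array weights and 1 to 4 when 1 array was left out. Against control they were 4, and 1 with only the compared groups or at an adjusted p under 0.01, 10 with array weights and 1 to 6 when 1 array was left out. After median centring Csnk1e (adjusted p = 0.12 in limma) and Rora (0.083) lost their calls against control. The cause of these shifts was not tested. Counts over all genes ran from 72 to 436, from 409 to 5729 and from 502 to 6619 in the same 3 comparisons.

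Called members kept their direction under every alternative. Signs turned only for differences near 0 that no setting called. With AICAR against forskolin, quantile normalization gave 0.017 for Wee1 and 0.068 for Arntl, and array weights gave 0.026 for Arntl, −0.0075 for Clock and −0.040 for Dbp. Against control, quantile normalization gave 0.070 for Per3 and 0.030 for Csnk1d, median centring gave −0.025 for Nr1d2 and −0.024 for Clock, and array weights gave −0.064 for Nr1d2 and −0.019 for Clock. Leaving out 1 array spanned 0 with forskolin for Cry1 (−0.055 to 0.0059) and Bhlhe41 (−0.11 to 0.050). With AICAR against forskolin it did so for Nr1d2 (−0.076 to 0.015), Wee1 (−0.029 to 0.011), Arntl (−0.031 to 0.013), Dbp (−0.014 to 0.085), Csnk1d (−0.0095 to 0.054) and Sik1 (−0.063 to 0.030). Against control it did so for Per3 (−0.012 to 0.0061), Cry2 (−0.0005 to 0.079), Bhlhe41 (−0.042 to 0.12), Nr1d2 (−0.041 to 0.050), Clock (−0.026 to 0.032) and Csnk1d (−0.034 to 0.030). The response differences between relatives kept their sign under all alternatives run.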
